A study of Mus musculus with 6 samples.

Results

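The sterol regulatory element-binding proteins (SREBPs) and the genes that control them were followed in mouse liver with and without the kinase LKB1. The members are Srebf1, Srebf2, Scap, Insig1, Insig2 and Stard4, chosen by gene symbol as the SREBP factors, their sterol sensors and a sterol carrier, and all 6 were found among the 55450 genes of the count table. All 6 passed the filter on low counts, which left 14539 genes. The liver RNA came from 6 mice of strain C57BL/J, with 3 mice in each group and 1 library per mouse. Knockout mice carried loxP-flanked LKB1 alleles (LKB1 fl/fl; the gene symbol is Stk11), and the control mice were wild type (WT). Both groups were given AAV8 Cre, an adeno-associated virus carrying the Cre recombinase, at 6 weeks of age, and the left liver lobe was taken 4 weeks later, at 10 weeks. The labels do not name the promoter that drives Cre, and no group without the virus was analysed here.

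SREBPs are made as precursors anchored in the endoplasmic reticulum, where the N-terminal transcription factor is held inactive. Scap escorts them to the Golgi in vesicles coated by the COPII complex, and proteases there release the active factor. When sterols are plentiful, Scap binds Insig1 or Insig2 and the complex stays in the endoplasmic reticulum. SREBP-2, from Srebf2, is best known for driving cholesterol synthesis, and the SREBP-1c form from Srebf1 drives fatty acid synthesis in liver under insulin and the oxysterol receptor LXR. Insig1 and Srebf2 are themselves SREBP targets, so the pathway contains feedback loops. AMPK, a kinase that LKB1 activates, is known to phosphorylate SREBPs.

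Stk11 was measured first as a check of the labels. It stood at 22.1, 14.4 and 11.4 CPM (counts scaled to a common library size, with a correction for composition) in knockout and at 66.1, 64.2 and 69.7 CPM in WT. Knockout differed from WT by -2.06 on the log2 scale (SE 0.25; adjusted p = 0.0167 by the quasi-likelihood test of edgeR). Counts are totals over the gene, so the deleted exons were not seen separately. Total counts per library ran from 47659122 to 56147667. Replicate 1 of each group had at least 29243 counts of Xist and at most 6 counts over 4 Y-linked genes, and the other 4 libraries had at most 16 counts of Xist and at least 6146 of the Y-linked genes. Results are therefore also given for these 4 libraries alone, called the Y libraries. Both libraries with Xist counts, the Xist pair, are 1 mouse against 1 and have no replicate check. Alb, the hepatocyte gene for albumin, was abundant in every library, but all knockout libraries lay below all WT libraries. It had 50549.7, 10394.5 and 17534.3 CPM in knockout and 95625.6, 69977 and 57064.1 CPM in WT.

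One promoter window of each of 4 members is shown, to set windows with and without a short core of the elements that SREBPs are known to bind side by side. Srebf1 and Insig2 have other annotated starts, whose windows differ in this core. The windows run from 250 bases before to 50 bases after an annotated start, and the sequences are RefSeq's for build GRCm38.p6, read 5′ to 3′ on the gene's strand. Capitals mark 3 motifs on either strand. TCACCC is a short core shared by sterol regulatory elements, CCAAT is the NF-Y element that often lies beside them, and CACGTG is an E-box. No motif overlaps another in these windows. These motifs were chosen with the windows in view.
Srebf2, chr15:82147019-82147318, plus strand: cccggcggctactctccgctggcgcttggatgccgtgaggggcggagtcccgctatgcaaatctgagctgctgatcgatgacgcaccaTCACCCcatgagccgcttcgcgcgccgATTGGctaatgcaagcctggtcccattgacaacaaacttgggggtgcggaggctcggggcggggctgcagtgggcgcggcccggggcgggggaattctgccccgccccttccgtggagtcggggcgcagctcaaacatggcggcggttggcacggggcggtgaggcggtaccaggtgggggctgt
Insig1, chr5:28071162-28071461, plus strand: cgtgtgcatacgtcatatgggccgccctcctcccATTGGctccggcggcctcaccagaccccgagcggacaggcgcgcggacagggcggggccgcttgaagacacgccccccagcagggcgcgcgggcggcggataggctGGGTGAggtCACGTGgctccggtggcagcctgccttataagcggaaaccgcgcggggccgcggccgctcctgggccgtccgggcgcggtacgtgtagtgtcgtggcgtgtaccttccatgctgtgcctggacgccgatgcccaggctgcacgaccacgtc
Srebf1, most downstream start, chr11:60210422-60210721, minus strand: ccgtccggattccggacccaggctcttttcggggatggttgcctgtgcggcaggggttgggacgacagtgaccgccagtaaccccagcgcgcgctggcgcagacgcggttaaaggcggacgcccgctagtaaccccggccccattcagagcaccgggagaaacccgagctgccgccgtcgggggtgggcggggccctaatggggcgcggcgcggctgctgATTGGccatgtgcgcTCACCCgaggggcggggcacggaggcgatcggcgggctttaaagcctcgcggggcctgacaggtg
Insig2, most upstream start, chr1:121332540-121332839, minus strand: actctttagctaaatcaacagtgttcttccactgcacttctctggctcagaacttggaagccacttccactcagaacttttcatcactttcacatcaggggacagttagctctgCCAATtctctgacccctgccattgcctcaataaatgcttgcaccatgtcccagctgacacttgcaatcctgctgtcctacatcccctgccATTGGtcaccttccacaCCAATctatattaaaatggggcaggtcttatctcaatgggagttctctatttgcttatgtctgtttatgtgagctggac

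The Srebf2, Insig1 and downstream Srebf1 windows each held 1 TCACCC match and 1 CCAAT match. In Srebf2 these began at positions -162 and -135, with the start site as position 0. In Insig1 they began at -110 and -216, with the E-box at -101, and in Srebf1 at -15 and -30. The upstream Insig2 window held 3 CCAAT matches and no match to TCACCC, whereas the windows of both other Insig2 starts held 1 TCACCC match each, at -84 and -44, and no CCAAT. Both other Srebf1 windows held no TCACCC, and the most upstream one held CCAAT at -166. Among all 32851 windows, 16.2% held TCACCC, 37.4% CCAAT, 7.15% CACGTG, and 5.6% both TCACCC and CCAAT. Over 10 windows of these 4 genes and Scap, 5 held TCACCC, 5 CCAAT and 3 CACGTG, but both Scap windows overlap and share 1 CACGTG site, which is counted in each. A pair of longer sterol-element motifs was also searched on both strands and had 0 matches in these 10 windows, against 0.0913% and 1.24% of all windows. A match describes the letters only.

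Of the 6 members, 0 passed the threshold, an adjusted p of 0.05 by edgeR over all 14539 genes, against 3.37% of all genes, and 5 of the 6 had an unadjusted p-value under 0.05, against 26.3%. Limma voom also called 0 members, against 2.97% of all genes, whereas DESeq2 called 5, against 15.8% of all genes. In 5 members the 3 knockout libraries did not overlap the 3 WT libraries, and such separation was seen in 32.4% of all genes tested. Of these members 4 were lower in knockout, against 15.5% of all genes, and 1 was higher, against 16.9%. Across all genes 313 were called higher and 177 lower, and with scaling by library size alone these counts were 380 and 131.

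**Figure D1:**
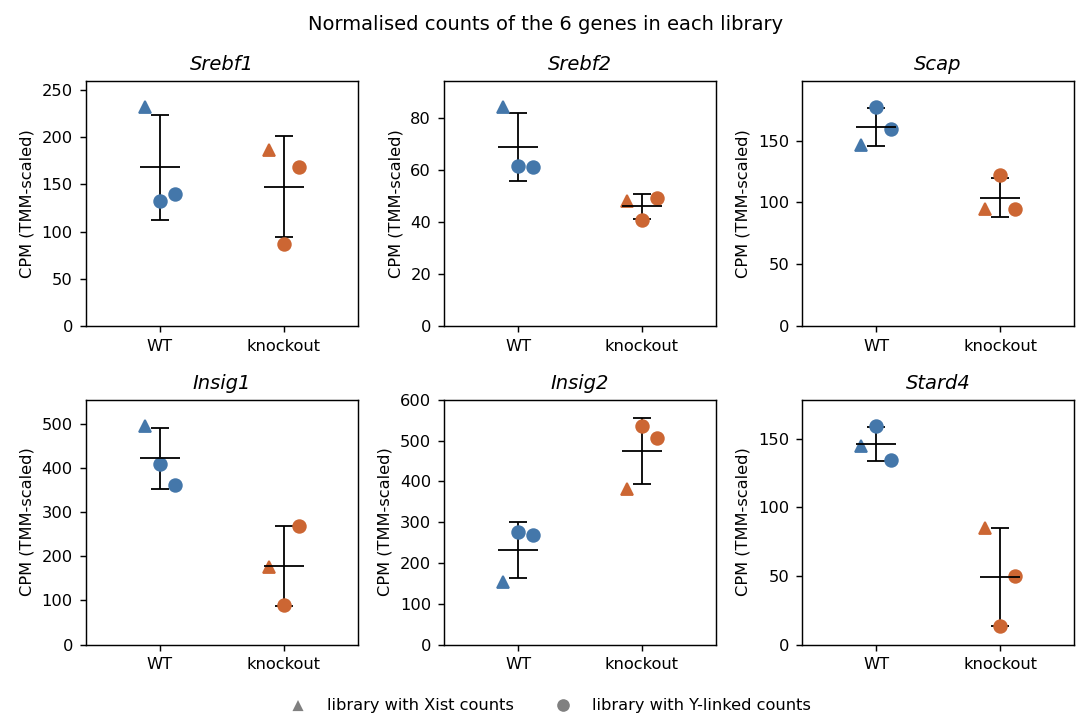
Normalised counts (CPM, linear axes from 0) of the 6 genes in each WT and knockout library, with the group mean and SD (n = 3) as bars; triangles are the libraries with Xist counts and circles those with Y-linked counts. Knockout and WT points are apart for Srebf2, Scap, Insig1, Insig2 and Stard4, with Insig2 the one higher in knockout, and Srebf1 points overlap.

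The transcription factors came first in order of role. Srebf1 (ENSMUSG00000020538.15, chromosome 11, 60199089 to 60222581, minus strand) encodes SREBP-1a and SREBP-1c, which these gene totals cannot separate. It stood at 187, 86.6 and 169 CPM in knockout and 232, 132 and 139.8 CPM in WT. The groups overlapped, and in each group the library with Xist counts was the highest. The means were 147 ± 53.4 and 168 ± 55.2 CPM (SD, n = 3 each), and the groups differed by -0.19 on the log2 scale (SE 0.34; edgeR adjusted p = 0.758). Its sign was positive without knockout replicate 2 (0.09) and without WT replicate 1 (0.11). Rai1 overlaps Srebf1 on the opposite strand with 402 to 940 counts per library, against at least 4811 for Srebf1, and the use of strand in counting is not given in the sources used here.

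Srebf2 (ENSMUSG00000022463.8, chromosome 15, 82147181 to 82205379, plus strand), whose promoter carries the TCACCC and CCAAT pair shown above, had 48.3, 40.6 and 49.3 CPM in knockout and 84.2, 61.6 and 61.3 CPM in WT. All 3 knockout libraries lay below all WT libraries, and the WT library with Xist counts was highest. The means were 46.1 ± 4.76 and 69.0 ± 13.1 CPM (SD, n = 3), or -0.58 on the log2 scale, which did not pass the threshold (SE 0.17; edgeR adjusted p = 0.0939). In the 4 Y libraries the difference was -0.46 (SE 0.13) and passed (edgeR adjusted p = 0.042).

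Scap (ENSMUSG00000032485.14, chromosome 9, 110333288 to 110384950, plus strand), the sterol-sensing escort, had 94.5, 122 and 94.8 CPM in knockout and 146, 177 and 159 CPM in WT. The highest knockout library remained below the lowest WT library. In each group the library with Xist counts was the lowest, in knockout by a small margin (94.5 against 94.8 CPM). The means were 104 ± 15.8 and 161 ± 15.4 CPM (SD, n = 3). Of the 6 members Scap had the smallest adjusted p in edgeR, 0.0756, at -0.63 on the log2 scale (SE 0.16). The value changed little between sets of libraries, at -0.64 (SE 0.16) in the Y libraries, where it passed (adjusted p = 0.0337), and -0.63 in the Xist pair.

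The Insig genes, which encode the retention proteins that hold Scap back, lay on opposite sides. Insig1 (ENSMUSG00000045294.11, chromosome 5, 28071363 to 28078662, plus strand) had 177, 88.7 and 269 CPM in knockout and 496, 409 and 361 CPM in WT. Every knockout library was below every WT library, but the knockout libraries ranged widely among themselves, and the Y libraries among them held both the lowest and the highest value. The means were 178 ± 90.4 and 422 ± 68.5 CPM (SD, n = 3), which is -1.24 on the log2 scale (SE 0.39; edgeR adjusted p = 0.11). In the Y libraries the difference was -1.11 (SE 0.49), which did not pass there either (adjusted p = 0.14).

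Insig2 (ENSMUSG00000003721.14, chromosome 1, 121304353 to 121332589, minus strand) had 382.5, 537 and 505 CPM in knockout and 153, 276 and 268 CPM in WT. Its knockout libraries were all above its WT libraries, and in each group the library with Xist counts was the lowest. The means were 475 ± 81.4 and 232 ± 68.8 CPM (SD, n = 3), a ratio of 2.04, or 1.03 on the log2 scale (SE 0.27; edgeR adjusted p = 0.0791). In the Y libraries the difference was 0.93 (SE 0.15) and passed (adjusted p = 0.00829), and with the Xist state as a term in the fit over all 6 libraries it was 1.06 (SE 0.16) and passed (adjusted p = 0.0247). Insig2 has alternative starts, one of them known to be liver-selective and repressed by insulin, and the gene totals do not separate them.

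Stard4 (ENSMUSG00000024378.9, chromosome 18, 33199355 to 33213862, minus strand), a cytosolic protein that moves cholesterol between membranes and a known SREBP-2 target, had 85.1, 13.4 and 49.7 CPM in knockout and 145, 159 and 135 CPM in WT. The WT libraries were close together and the knockout libraries, all lower, were spread over a wide range. The means were 49.4 ± 35.8 and 146 ± 12.5 CPM (SD, n = 3), and WT was 2.96 times knockout. The difference of -1.57 on the log2 scale did not pass (SE 0.58; edgeR adjusted p = 0.148). It was -2.23 (SE 0.58) in the Y libraries, where it passed (adjusted p = 0.0353), and -0.77 in the Xist pair.

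**Figure D2:**
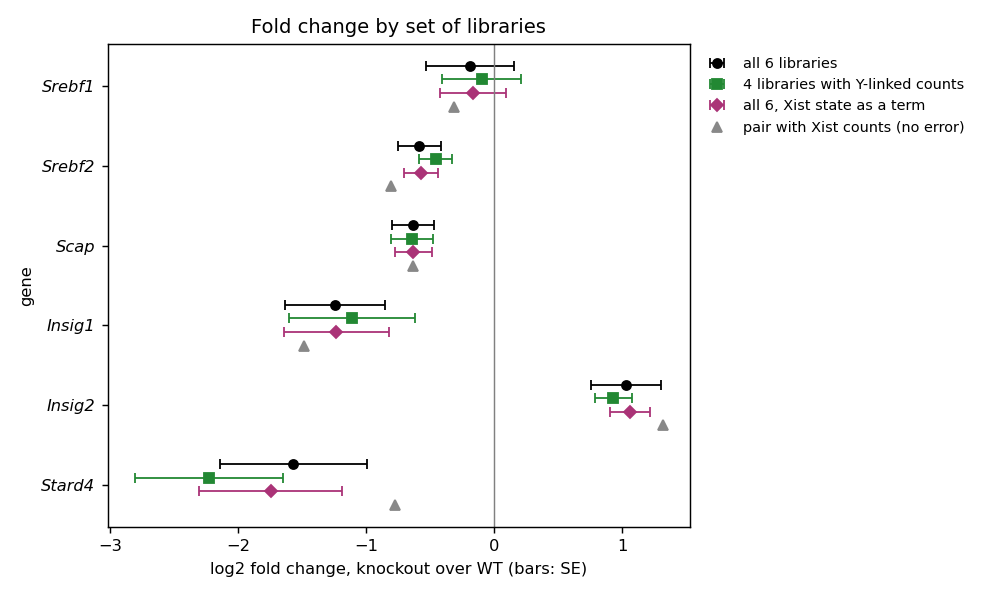
Log2 fold change of knockout over WT for each gene (horizontal axis; bars are SE) from all 6 libraries, the 4 with Y-linked counts, all 6 with the Xist state as a term, and the Xist pair, which has no error. Insig2 is to the right of 0 in every set, the points of Scap nearly coincide, and those of Stard4 are the furthest apart, from -2.23 to -0.77.

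In the 4 Y libraries, Srebf2, Scap and Stard4 passed as lower and Insig2 as higher, 4 of 6 members against 33.3% of all genes tested there (16.1% lower and 17.2% higher). With the Xist state as a term over all 6 libraries, Scap (-0.63, edgeR adjusted p = 0.0489) and Insig2 passed, 2 of 6 members against 10.3% of all genes, and Srebf2 lay just outside (adjusted p = 0.051). Without knockout replicate 1, the knockout library with Xist counts, 4 members passed, Srebf2 (adjusted p = 0.0481), Scap (0.0433), Insig2 (0.0237) and Stard4 (0.0271), against 30.2% of all genes. The difference between these sets of libraries was itself tested as an interaction of the group with the Xist state. By edgeR this term passed for 0 of 6 members, against 2.9% of all genes. The smallest of the 6 was 0.417, and 0 members had an unadjusted p-value under 0.05, against 20.9% of all genes. A single pair of mice stands for the Xist state, which limits what this test can find.

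Levels of different genes were compared per kilobase of annotated exon. In WT the order was Insig1 at 136 ± 22.1, Insig2 at 66.9 ± 19.8, Srebf1 at 29.8 ± 9.80, Stard4 at 26.2 ± 2.24, Scap at 21.6 ± 2.07 and Srebf2 at 9.61 ± 1.83 CPM per kilobase (SD, n = 3). Srebf1 and Stard4 overlapped over the WT libraries, and Stard4 and Scap lay side by side, at no less than 24.1 and no more than 23.8. In knockout Insig2 came first at 137 ± 23.4 CPM per kilobase and Insig1 second at 57.7 ± 29.2, with no overlap between them. Insig1 overlapped Srebf1 below it. Srebf1 followed at 26.2 ± 9.47, Scap at 13.9 ± 2.13, Stard4 at 8.84 ± 6.41 and Srebf2 at 6.41 ± 0.663 CPM per kilobase. Scap overlapped Srebf1 above it, and Stard4 overlapped both of its neighbours.

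The ratio of Insig2 to Insig1 within a library, chosen after the values were seen, brings this change of order into 1 number per mouse. Per kilobase it was 1.93, 5.39 and 1.67 in knockout and 0.275, 0.601 and 0.661 in WT. Insig2 thus exceeded Insig1 in every knockout library and in none of the WT libraries. The mean log2 ratios were 1.37 ± 0.92 and -1.06 ± 0.69 (SD, n = 3 each), and their difference of 2.44 had a two-sided exact permutation p-value of 0.1, the smallest that 3 against 3 can give. Every knockout library was below every WT library in Insig1 and above it in Insig2. The ratio therefore had to separate the groups, and this p-value adds no support. The ratio of Srebf1 to Srebf2, computed in the same way, was 4.93, 2.72 and 4.36 in knockout and 3.51, 2.74 and 2.91 in WT, which overlapped (exact permutation p = 0.4). These are 2 comparisons, and neither p-value can pass 0.05 in this design, adjusted or not.

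**Figure D3:**
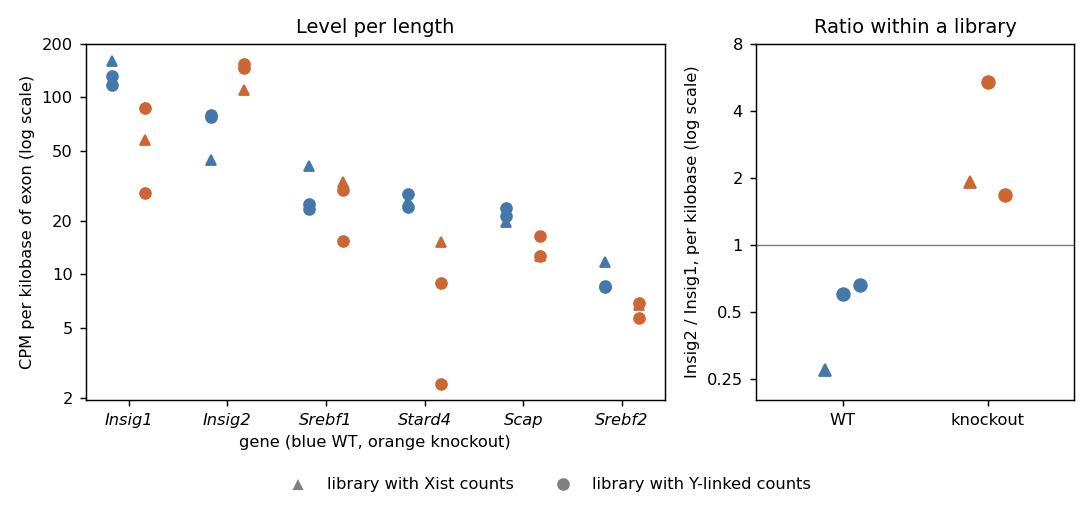
Left, CPM per kilobase of exon (log scale) of each gene in each library, WT in blue and knockout in orange; right, the ratio of Insig2 to Insig1 per kilobase (log scale) in each library, with the line at 1. Insig1 leads in WT and Insig2 in knockout, and the ratio lies below 1 in all WT libraries and above 1 in all knockout libraries.

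Other genes of the pathway were taken from 6 lists and are given by counts and medians, beside a median log2 fold change of 0.01 over all genes tested. Cholesterol synthesis, the process SREBP-2 drives, had 22 genes tested, of which 9 fell past the threshold and 0 rose, against 1.22% of all genes that fell and 2.15% that rose. The median was -1.23, and 19 of the 22 had knockout libraries wholly below WT, against 15.5% of all genes. Dhcr7, the last reductase of the pathway, fell from 94.7 ± 6.80 to 40.7 ± 2.01 CPM (SD, n = 3; edgeR adjusted p = 0.00911). Cyp51, the lanosterol demethylase, had 70.1, 25.2 and 36.1 CPM in knockout and 247, 249.6 and 221 CPM in WT, and Msmo1, the next oxidase, fell by 2.18 on the log2 scale (edgeR adjusted p = 0.0157). Sqle, which makes the epoxide of squalene, and Mvk, which phosphorylates mevalonate, differed by -1.73 and -1.11 on the log2 scale and also passed (edgeR adjusted p = 0.0226 and 0.0304). Insig1 and Stard4 had log2 differences within the range of these 5 genes, with larger standard errors. These 5 were named for the smallest adjusted p of the list, a choice that itself favours small standard errors.

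The genes that process SREBPs or limit their turnover did not move together. Of 20 tested, 2 fell past the threshold and 0 rose, against 1.22% and 2.15% of all genes, and the median log2 fold change was 0.00. The 2 that fell were Sec24d and Sec23b, and the 6 other COPII genes of the list did not pass, with log2 fold changes from -0.39 to 0.23. Sec24d, a cargo adaptor of the COPII coat, had 60.0, 50.2 and 56.4 CPM in knockout and 89.6, 94.4 and 96.4 CPM in WT, which is -0.75 on the log2 scale (SE 0.12; edgeR adjusted p = 0.0322). Sec23b, its partner in the inner coat, had 23.9, 32.3 and 32.4 CPM in knockout and 51.8, 50.4 and 52.2 CPM in WT, which is -0.80 (SE 0.15; edgeR adjusted p = 0.0431). In both genes the WT libraries were close together and above all knockout libraries. In the Y libraries 10 of the 20 genes passed, 6 higher and 4 lower, where 17.2% of all genes were called higher and 16.1% lower.

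Among lipogenic targets of SREBP-1, 0 of 16 genes tested passed over the 6 libraries in edgeR, against 3.37% of all genes. An unadjusted p-value under 0.05 in edgeR was seen in 6 (26.3% of all genes), and the median was -0.16. DESeq2 called 5 of these genes, against 15.8% of all genes, and limma voom 1, against 2.97%. Acly, which makes cytosolic acetyl-CoA, was nearest to the threshold at 594, 517 and 968 CPM in knockout against 287, 297 and 246 CPM in WT (edgeR adjusted p = 0.0507). Mid1ip1, an activator of acetyl-CoA carboxylase, lay in the other direction, at -0.77 on the log2 scale (SE 0.17; adjusted p = 0.0605). The list's median was -0.60 in the Y libraries and 0.30 in the Xist pair, so its sign differed between them.

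The inputs to Srebf1 transcription, such as LXR, insulin receptor substrates and Akt kinases, had 0 of 15 genes called in edgeR, against 3.37% of all genes. Their median was -0.01, and 4 had an unadjusted p-value under 0.05 in edgeR (26.3% of all genes). DESeq2 called 1 (15.8% of all genes) and limma voom 0 (2.97%). Irs2, an insulin receptor substrate, was closest, at 81.1, 94.6 and 77.4 CPM in knockout and 57.3, 28.6 and 35.2 CPM in WT (edgeR adjusted p = 0.0712), and Irs1 followed at 0.54 on the log2 scale (SE 0.19; adjusted p = 0.14). Of 21 genes for sterol movement, storage and uptake, 1 rose past the threshold and 0 fell, with a median of -0.07. Of all genes, 2.15% rose and 1.22% fell. The one that rose was Gramd1c, which like Stard4 carries sterol between membranes, from 35.1 ± 5.32 to 67.7 ± 9.53 CPM (SD, n = 3; edgeR adjusted p = 0.0383). Npc1, the lysosomal cholesterol exporter, differed by -0.78 on the log2 scale without passing (SE 0.26; adjusted p = 0.122). Over these 21 genes, knockout libraries lay wholly below WT in 4 and wholly above in 1, against 15.5% and 16.9% of all genes.

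Of the 8 LXR targets, 2 rose past the threshold and 0 fell, against 2.15% and 1.22% of all genes, and the median was -0.22. The 2 were Abcg5 and Abcg8, which together form the canalicular sterol exporter. Their spans on chromosome 17 overlap on opposite strands, at 84658234 to 84683011 (Abcg5, minus) and 84676302 to 84700333 (Abcg8, plus). The use of strand in counting is not given in the sources used here, so these 2 calls may not be separate. Abcg5 had 188, 446 and 437 CPM in knockout and 94.9, 68.0 and 54.2 CPM in WT (2.30 on the log2 scale, SE 0.39; edgeR adjusted p = 0.0334). Abcg8 had 229, 463 and 478 CPM in knockout and 122, 101 and 84.2 CPM in WT (1.93, SE 0.32; edgeR adjusted p = 0.0329). In both genes the groups did not overlap, and the knockout library with Xist counts was the lowest of its group. Over the 8 targets, knockout libraries lay wholly below WT in 3 and wholly above in 2, against 15.5% and 16.9% of all genes. In the Y libraries 3 were called lower and 2 higher, against 16.1% and 17.2% of all genes.

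**Figure D4:**
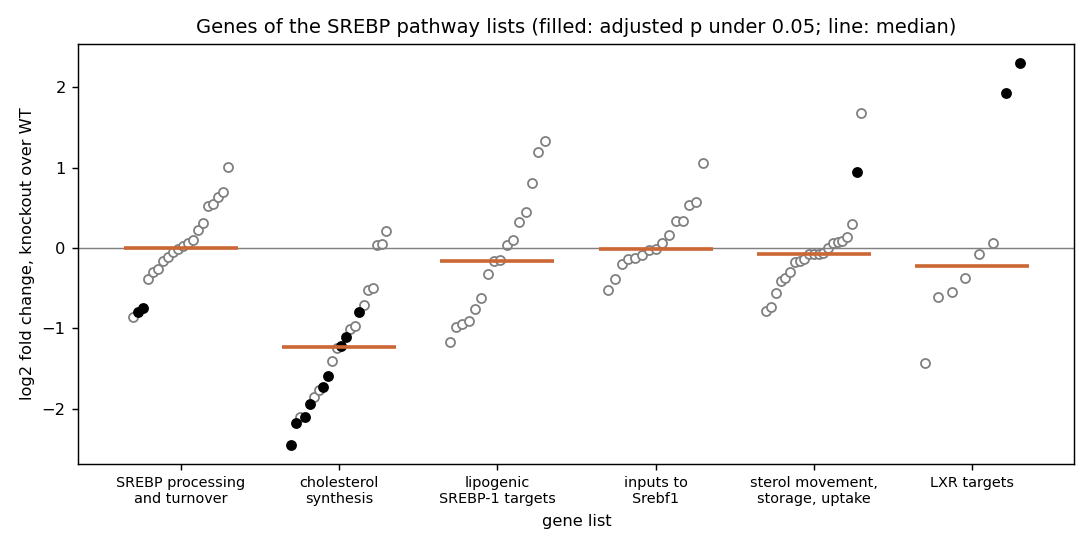
Log2 fold change of knockout over WT (vertical axis) for each tested gene of the 6 pathway lists, sorted within a list; filled points passed an adjusted p-value of 0.05 in edgeR and lines are list medians. Cholesterol synthesis lies mostly below 0, with a median of -1.23, the other lists have medians between -0.22 and 0.00, and the filled points of the LXR targets are Abcg5 and Abcg8.

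Profiles over the 6 libraries were compared by the root mean square difference of mean-centred log2 CPM, as a description. Among the members, Srebf2 and Scap were closest (0.31) and Insig2 and Stard4 furthest apart (1.78). Among 9140 other genes of at least 5 CPM, the nearest to Srebf2 was Hs3st3b1 (0.062), a heparan sulphate sulphotransferase, and the nearest to Scap was Cipc (0.081), an inhibitor of the clock factor CLOCK. The nearest to Insig1 was Nr1d1 (0.251), which encodes the clock repressor REV-ERB alpha, and to Insig2 Mrap (0.132), a melanocortin receptor accessory protein. Srebf1 was nearest to Ncald (0.12) and Stard4 to Syt1 (0.171). None of these 6 genes passed the threshold in edgeR, with adjusted p-values from 0.0541 to 0.579.

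Markers of liver cell types were summed in each library. The summed level of 9 hepatocyte markers lay between 21001 and 73974 CPM in knockout libraries and between 92158 and 126898 CPM in WT libraries. Alb was the largest part of this sum in every library. Of the 9 markers 8 had a lower knockout mean. The exception was Hnf4a, at 542, 625 and 670 CPM in knockout and 539, 524 and 536 CPM in WT, with no overlap. All 10 endothelial markers had a lower knockout mean, with sums of 133 to 214 CPM against 257 to 345 CPM, and so had all 10 stellate markers, with overlapping sums of 191 to 396 and 299 to 645 CPM. Macrophage markers overlapped, at 129 to 288 and 185 to 254 CPM, as did bile duct markers, at 25.4 to 76.0 and 40.1 to 74.6 CPM. Markers of lymphocytes and neutrophils were low in all libraries, at no more than 10.3 CPM in sum, with Ly6g at 0 in all 6. Of the 53 markers tested, edgeR called 0, DESeq2 9 and limma voom 1, against 3.37%, 15.8% and 2.97% of all genes, and 14 had an unadjusted p-value under 0.05 in edgeR, against 26.3%. In whole tissue fewer cells of a type and less RNA of its marker genes per cell cannot be told apart. The part of these markers in the results above was not tested.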

How the data were processed

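Poly(A) RNA of 6 livers was sequenced as 1 pool, in read pairs of 76 nt. The authors deposited expected counts per gene, 1 column per mouse, per the labels. The submitters' processing notes list bcl2fastq 2.17, cutadapt 1.18, STAR 2.7.0f, RSEM 1.3.1 and the build mm9. All 55450 gene identifiers, with versions, are however those of GENCODE release M21 on GRCm38, from which positions and exon lengths were taken. Strand use is not given in the sources used here.

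Expected counts were rounded. Genes were filtered with filterByExpr, scaled by TMM and tested with the quasi-likelihood test of edgeR 4.0.16 (R 4.3.3), with the group as the only term and Benjamini-Hochberg adjustment over 14539 genes. An SE is the size of a log2 fold change divided by the square root of F. CPM use TMM-scaled library sizes, and log2 CPM a prior count of 2. Alternatives were DESeq2 1.42.0, limma voom 3.58.1, other scalings, no filter, a replicate block, the Xist state as a term, the libraries with Y-linked counts, and each library left out. The tests were tried on simulated data.

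The members and gene lists were chosen with earlier results of these data known. Named genes are the members and Stk11, from each list the called genes, at most 5 by adjusted p, filled up to 2 by unadjusted p where fewer were called, and genes nearest in profile to a member. Of the 3 nearest genes that the rule takes for each member, 1 is named here. Columns without a sample numbered 0.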

Additional observations from a re-analysis of the deposited data

Results flagged for a closer look

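The Xist pair is 1 knockout mouse against 1 WT mouse, so the Xist state and these single mice cannot be told apart in the test below, and the knockout mouse of that pair had the highest Stk11 of its group, 22.1 CPM against 14.4 and 11.4. Abcg5 was the only gene named here, of those with this test, whose difference between knockout and WT passed a test of its change between the Xist pair and the Y libraries. In log2 units the interaction was -1.86 (adjusted p = 0.0358 by edgeR), and 2.9% of all genes passed 0.05 in this test. The log2 fold change was 2.85 in the 4 Y libraries and 0.99 in the Xist pair, and knockout was higher than WT in both. For Abcg8, which overlaps Abcg5 on the opposite strand, the interaction was -1.44 with an edgeR adjusted p-value of 0.061.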

How the results depend on the processing

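Over all genes, 490 were called, and 771 without the filter on low counts, 2290 by DESeq2, 105 with the replicate block, 1504 with the Xist state as a term and 4847 in the Y libraries. Leaving out 1 library gave 6 to 4473: 4473, 86 and 35 without knockout replicate 1, 2 and 3, and 262, 6 and 20 without WT replicate 1, 2 and 3. Of the members, DESeq2 called 5 (Srebf2 -0.59, Scap -0.65, Insig1 -1.25, Insig2 1.02, Stard4 -1.58), the Xist term 2 (Scap -0.63, Insig2 1.06) and the Y libraries 4 (Srebf2 -0.46, Scap -0.64, Insig2 0.93, Stard4 -2.23), and leaving out 1 library called 0 to 4, the 4 without knockout replicate 1.

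The log2 fold changes with 1 library left out ran from -0.40 to 0.11 for Srebf1, -0.66 to -0.42 for Srebf2, -0.76 to -0.56 for Scap, -1.67 to -0.91 for Insig1, 0.80 to 1.17 for Insig2 and -2.22 to -1.11 for Stard4. Srebf1 changed sign without knockout replicate 2 (0.09, adjusted p = 0.893) and without WT replicate 1 (0.11, adjusted p = 0.873), and the cause was not tested. Adjusted p over all alternatives ran from 0.0278 to 0.238 for Srebf2, 0.00643 to 0.27 for Scap, 0.00928 to 0.273 for Insig1, 0.00409 to 0.233 for Insig2 and 0.0193 to 0.335 for Stard4.

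Of all genes, 3.51% were called by library size alone, 3.25% without the filter, 15.8% by DESeq2 and 2.97% by limma voom. The share was 0.722% with the block, 10.3% with the Xist term and 33.3% in the Y libraries. With 1 library left out it ran from 0.0401% to 30.2%. For SREBP processing the calls were 4 by DESeq2, 0 with the block, 10 in the Y libraries and 0 to 7 with 1 library left out. For cholesterol synthesis they were 14 without the filter, 17 by DESeq2, 3 with the block, 15 with the Xist term, 16 in the Y libraries and 0 to 17 with 1 left out, 0 of them without knockout replicate 3 or WT replicate 2 or 3. For lipogenic targets they were 1 by library size alone, 2 without the filter, 5 by DESeq2, 1 by limma voom, 3 with the Xist term, 8 in the Y libraries and 0 to 8 with 1 left out. For inputs to Srebf1 they were 1 by DESeq2, 1 with the Xist term, 5 in the Y libraries and 0 to 5 with 1 left out, and the median ran from -0.057 to 0.053. For sterol movement they were 2 by DESeq2, 0 with the block, 2 with the Xist term, 6 in the Y libraries and 0 to 5 with 1 left out. For LXR targets they were 5 by DESeq2, 0 with the block, 5 in the Y libraries and 0 to 5 with 1 left out. The calls in the Y libraries were 6 higher and 4 lower for SREBP processing, 0 and 16 for cholesterol synthesis, and 1 and 7 for lipogenic targets. They were 3 and 2 for inputs to Srebf1, 2 and 4 for sterol movement, and 2 and 3 for LXR targets. Of all genes there, 17.2% were called higher and 16.1% lower. Without length, Scap ranked 4 and Stard4 5 in WT.

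With the replicate block 0 members passed. The labels do not say whether same-numbered mice were paired. Deviations of same-numbered libraries correlated at 0.178, 0.0443 and 0.0679. Knockout replicate 1 correlated best with WT replicate 1, the other library with Xist counts (-0.155 and -0.131 with WT replicates 2 and 3). Knockout replicates 2 and 3 correlated better with WT replicates 3 (0.12) and 2 (0.203). With 3 mice per group these correlations cannot show whether the mice were paired.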
